A study of Homo sapiens with 3 samples.

Results

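The genes described here code for the subunits of the translocase of the outer mitochondrial membrane (TOM), the entry gate for nearly all mitochondrial proteins made in the cytosol. Rows of the footprint table were taken by gene name, as TOMM5, TOMM6, TOMM7, TOMM20, TOMM22, TOMM34, TOMM40, TOMM40L and TOMM70. This gave 9 genes of 63241. Selection by name used no measured value, but earlier results of these data were known when the members were chosen. All 9 passed the filter on low counts that left 19820 genes in the tests. Ribosome profiling (Ribo-seq) sequences the stretches of mRNA that ribosomes protect from nuclease digestion, so a gene's footprint count reflects how much of its mRNA was occupied by ribosomes. The study used it to ask whether mutant p53 (mut p53) alters the translation of mRNAs that it binds, mitochondrial ones among them.

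The cells were HEK293T, an established line of human embryonic kidney origin; it expresses large T antigen of the SV40 virus, which itself binds p53. All groups carried an added p53 construct: wild-type (WT), G245S or R273H, the last 2 being hotspot changes in the DNA-binding domain. Per the study's methods these were lines made with lentivirus and kept under puromycin, whereas the labels call the cells stable and also transiently transfected, and for both mutants the treatment label names the WT construct. The titles of the samples decided the groups. Each group was 3 culture dishes, treated with cycloheximide and digested with micrococcal nuclease, and the dishes of a group were pooled at reverse transcription. Group and library pool therefore cannot be told apart, and p-values measure only the spread between dishes of a line, which may be technical. A group without a construct and matched RNA-seq were not analysed here, so fewer mRNA molecules and fewer ribosomes on each mRNA cannot be told apart.

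In the TOM complex, TOMM40 is the β-barrel channel through which precursors cross the membrane. TOMM20 recognises amphipathic presequences, TOMM70 docks precursors brought by the Hsp70 and Hsp90 chaperones, and TOMM22 is the central receptor that ties the channels together. TOMM5, TOMM6 and TOMM7 are small single-span subunits that help the complex assemble and keep it stable. TOMM40L is a paralogue of TOMM40. TOMM34 is a cytosolic cochaperone of Hsp70 and Hsp90 and no subunit of the membrane complex.

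The 3 small subunits have the shortest reading frames of the 9 genes, and their differences from WT shifted once a coding length and GC trend was removed. Their complete coding sequences are therefore shown as spliced from GENCODE v44 on GRCh38, 5′ to 3′, with the start and stop codon in capitals. TOMM5 (ENSG00000175768) is coded on the minus strand within chr9:37588898-37592532, TOMM6 (ENSG00000214736) on the plus strand within chr6:41787698-41789328 and TOMM7 (ENSG00000196683) on the minus strand within chr7:22813170-22822779.
TOMM5: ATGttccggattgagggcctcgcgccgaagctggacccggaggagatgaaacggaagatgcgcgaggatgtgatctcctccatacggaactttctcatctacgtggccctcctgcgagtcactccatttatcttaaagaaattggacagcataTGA
TOMM6: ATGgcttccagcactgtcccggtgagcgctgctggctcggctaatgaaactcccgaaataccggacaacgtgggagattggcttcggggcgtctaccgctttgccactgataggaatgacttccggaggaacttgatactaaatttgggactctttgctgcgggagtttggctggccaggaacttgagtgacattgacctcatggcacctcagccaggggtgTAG
TOMM7: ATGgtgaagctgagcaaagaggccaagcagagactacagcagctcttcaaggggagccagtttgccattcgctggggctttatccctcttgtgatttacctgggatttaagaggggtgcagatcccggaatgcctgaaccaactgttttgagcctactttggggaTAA

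These frames code for 51, 74 and 55 amino acids. The receptor frames code for 145 amino acids in TOMM20, 142 in TOMM22 and 608 in TOMM70, that of TOMM40 for 361, that of TOMM40L for 308 and that of TOMM34 for 309. TOMM20 (ENSG00000173726) lies at chr1:235109341-235128837 on the minus strand with 5 exons, and TOMM22 (ENSG00000100216) at chr22:38681957-38685421 on the plus strand with 4. TOMM70 (ENSG00000154174) lies at chr3:100363431-100401089 on the minus strand with 12 exons, and TOMM40 (ENSG00000130204) at chr19:44890569-44903689 on the plus strand with 9. TOMM40L (ENSG00000158882) spans chr1:161225939-161230746 on the plus strand, and TOMM34 (ENSG00000025772) spans chr20:44942130-44960397 on the minus strand.

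The study reports an RNA motif centred on GGCUGG that WT and mut p53 share, with further enrichment in the mutants. It places preferred binding of mut p53 in 3′UTRs. It interprets the motif as marking structured RNA from Alu repeats, and not as a sequence that p53 itself recognises. GGCTGG was searched here on the sense strand of each canonical transcript, whereas the study searched both strands. The motif stood in the 3′UTR of TOMM20, TOMM22 and TOMM40L. The windows below are from GRCh38, with the motif in capitals and 12 bases on each side. The TOMM20 3′UTR holds a second, overlapping copy 4 bases on. They come from chr1:235110244-235110273 (minus strand), chr22:38685261-38685290 (plus strand) and chr1:161229470-161229499 (plus strand).
TOMM20: cagaaaaaggagGGCTGGctggaggagtga
TOMM22: tcgggatggtggGGCTGGgcccaggcccgc
TOMM40L: agagcctcccaaGGCTGGgaaagtagggct

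TOMM6 held the letters once in its coding region, at codon 57, TOMM5 once in its 5′UTR, and TOMM40L also once in the 5′UTR and 2 times in the coding region. TOMM70, TOMM40, TOMM7 and TOMM34 had no copy in the canonical transcript. Of all 20045 canonical protein-coding transcripts, 73.8% held the motif somewhere, and 43.3% of those with a 3′UTR held it there. A match is a stretch of letters and not a binding site, and its absence says only that the letters are not in these transcripts. TOMM40 and TOMM70, which had none, and TOMM20 and TOMM22, which had it in the 3′UTR, were the genes called higher in G245S below.

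Libraries held 18.7 to 24.6 M expected counts, on average 19.3 ± 0.655 M in WT (SD, n = 3), 20 ± 1.47 M in G245S and 24.1 ± 0.726 M in R273H, and the 9 genes took 0.117% to 0.121% of them. Levels are given as CPM, counts scaled to a common library total with TMM factors. The p53 targets MDM2 and CDKN1A, read as a check of the labels, were lower in both mutants, by a log2 fold change of -3.48 and -1.92 in G245S and of -3.49 and -2.14 in R273H. Of the HEK293T markers, VIM averaged 884 to 983 CPM, NEFM 262 to 277 CPM and PAX2 5.43 to 6.92 CPM per group, while PTPRC, ALB, CD34, MYOD1 and GFAP stayed at or under 0.348 CPM; COL1A1, a fibroblast gene, averaged 27.5 to 32.5 CPM. Within-library deviations followed coding length to a degree that differed by group. Over 10886 genes, Spearman's rho between a gene's deviation from its mean level and its coding length was -0.18 to -0.14 in WT dishes, -0.01 to 0.12 in G245S dishes and 0.14 to 0.19 in R273H dishes. Beside WT, long genes thus read higher in the mutant libraries and short ones lower. With the GC content of the coding region, rho was -0.18 to 0.26 in WT dishes, -0.18 to 0.34 in G245S dishes and -0.42 to -0.14 in R273H dishes. It differed also between dishes of a group and was highest in G245S dish 1. Differences between groups are therefore given also after a smooth coding length and GC trend was removed from each library. Whether that trend comes from the libraries or from the cells was not tested.

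In G245S against WT, occupancy of the channel gene and of the 3 receptor genes was higher by 5.43% to 13.4%, and that of the small subunit TOMM6 was lower by a log2 fold change of -0.11. In R273H against WT, TOMM20 and TOMM70 were higher, and TOMM6 and TOMM7 lower. These were calls at a Benjamini-Hochberg adjusted p under 0.05 from edgeR's quasi-likelihood test, two-sided and adjusted over 19820 genes. In G245S, 4 of 9 genes were called higher against 12.6% of all genes tested, and 1 lower against 12.1%. In R273H, 2 were called higher against 14.2% of all genes, and 2 lower against 14.6%. The shares of all genes, here and below, were not matched for count level. The median log2 fold change of the 9 genes was 0.073 in G245S and 0.015 in R273H, beside medians of -0.001 and -0.002 over all genes. Both comparisons share the WT dishes. None of the 9 was called in a test against a fold change of 1.2 (edgeR glmTreat).

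**Figure D1:**
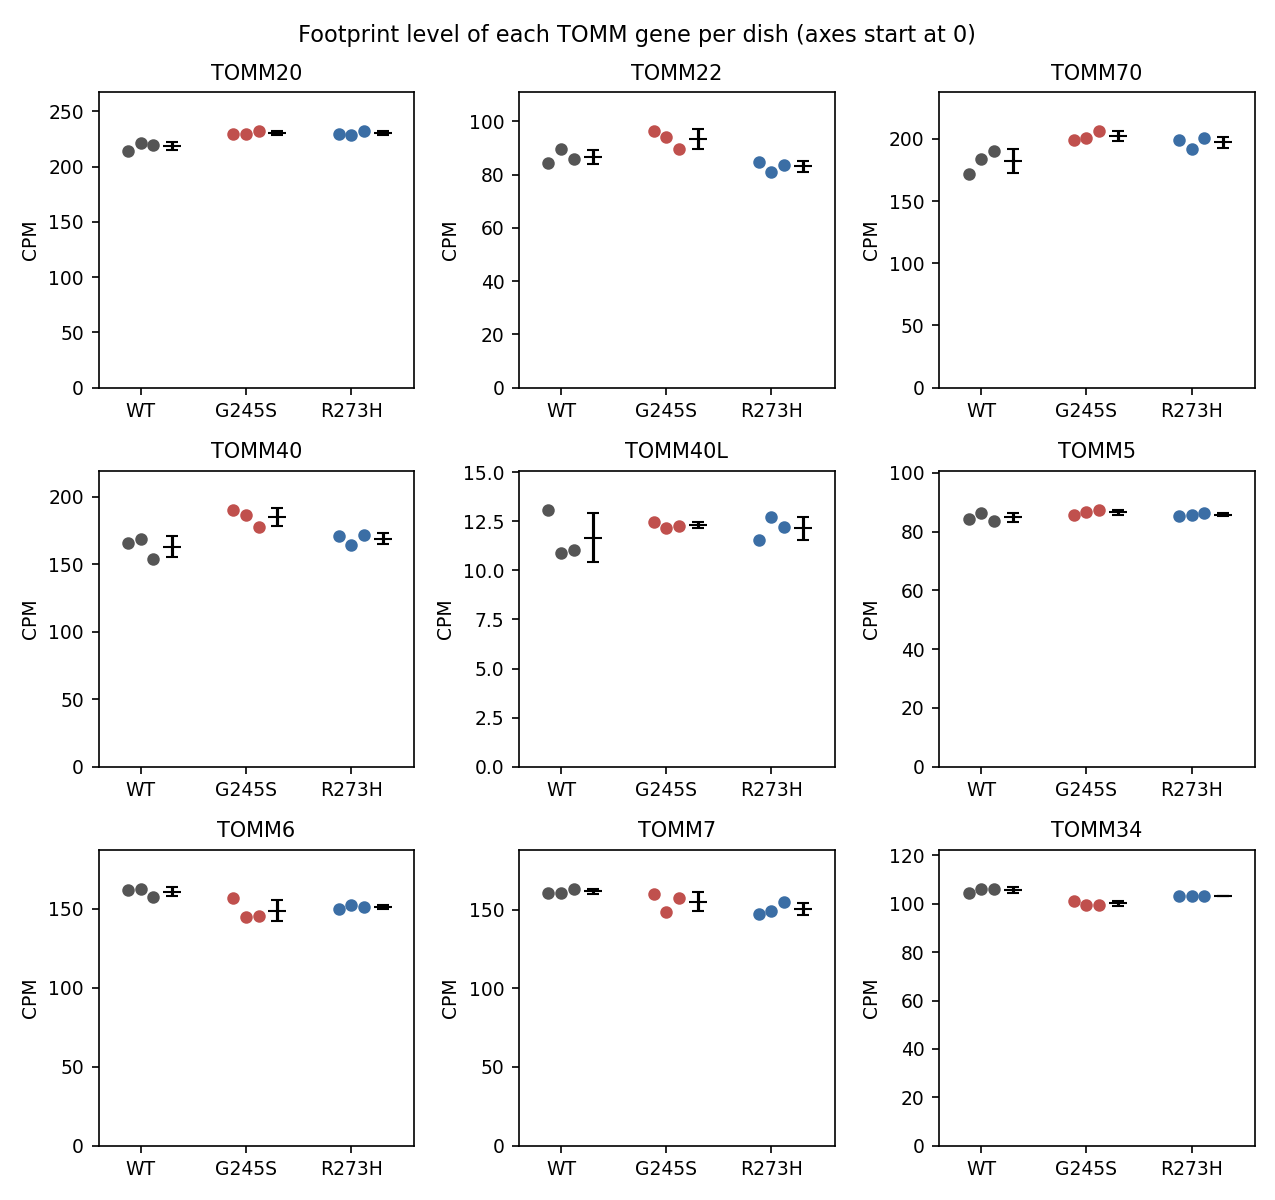
Footprint level (CPM) of each of the 9 genes, on axes that start at 0. Each point is 1 dish, and the bar beside each group is the mean ± SD of its 3 dishes. TOMM40 and TOMM70 dishes of G245S lie above all WT dishes, and those of TOMM6 lie below them.

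TOMM20, the presequence receptor, read 214.4, 221.3 and 219.7 CPM in the WT dishes, 229.1, 229.8 and 232.0 in G245S and 229.6, 228.7 and 232.6 in R273H. Every mutant dish lay above every WT dish, and the ranges of the mutants overlapped. The log2 fold change was 0.076 ± 0.0263 (SE) in G245S and 0.076 ± 0.0259 in R273H, with edgeR adjusted p of 0.0328 and 0.0272. Both calls were narrow. With no filter on low counts the G245S call had an adjusted p of 0.0737, and with only the 6 dishes compared one of 0.0548. Both calls were lost without WT dish 1 (log2 0.063 and 0.062) and, in each comparison, without any 1 of the 3 mutant dishes (0.075 to 0.083 in G245S and 0.071 to 0.081 in R273H). Rows named as TOMM20 pseudogenes, 4 in all, held 11.4% to 14% of the counts that they and TOMM20 had together. Whether these were TOMM20 reads shared out between similar copies was not tested. With the pseudogene counts added, both calls held.

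TOMM22, the central receptor, was the receptor on which the mutants parted. Its level was 84.18, 89.45 and 86.00 CPM in WT, 96.52, 94.06 and 89.43 CPM in G245S and 84.82, 80.89 and 83.67 CPM in R273H. The lowest G245S dish lay just under the highest WT dish, and every G245S dish lay above every R273H dish. In G245S the log2 fold change against WT was 0.108 ± 0.0378 (edgeR adjusted p = 0.0357). That call was lost without WT dish 1 (0.088), WT dish 3 (0.108), G245S dish 1 (0.087) or G245S dish 2 (0.103), and with DESeq2 (adjusted p = 0.0838). In R273H the value was -0.058, with a 95% interval of -0.135 to 0.019, and it was not called. Its 6 pseudogene rows took at most 0.761% of the combined counts.

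TOMM70, the receptor for chaperone-bound precursors and the longest of the genes, was at 171.4, 183.8 and 190.4 CPM in WT, the widest spread of any receptor. It stood at 198.9, 200.7 and 206.6 CPM in G245S and at 198.8, 192.1 and 200.7 CPM in R273H. All 6 mutant dishes exceeded the highest WT dish, although the gap to the lowest R273H dish was small. The log2 fold changes were 0.153 ± 0.0329 in G245S and 0.117 ± 0.0325 in R273H, with edgeR adjusted p of 0.00093 and 0.00725. In G245S the call held in all 9 fits that left out 1 dish. In R273H it held in 8 and was lost without WT dish 1, the lowest of the WT dishes, where the value was 0.075.

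For TOMM40, the channel itself, WT dishes gave 165.8, 169.0 and 154.1 CPM, G245S dishes 190.6, 186.6 and 177.8 CPM and R273H dishes 170.7, 164.3 and 172.0 CPM. G245S stood clear of both other groups, which overlapped. Its log2 fold change against WT was 0.182 ± 0.0342, the largest among the 9 genes (edgeR adjusted p = 0.00022), and held whichever dish was left out. In R273H the value was 0.052, with a 95% interval of -0.018 to 0.122, and was not called. The 4 TOMM40 pseudogene rows held 2.14% to 3.17% of the combined counts.

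TOMM40L, the paralogue, had few footprints, at 11.7 ± 1.24 CPM in WT (SD, n = 3), 12.3 ± 0.158 in G245S and 12.2 ± 0.578 in R273H. This corresponds to 206 to 314 counts per dish. The log2 fold changes were 0.073 and 0.055, with 95% intervals of -0.11 to 0.256 and -0.122 to 0.233. At this depth a change as large as that of TOMM40 in G245S would fall within the interval.

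As counted, none of the small subunits was called higher in either mutant. TOMM5, which sits beside the channel, was at 84.38, 86.44 and 83.63 CPM in WT, 85.79, 86.64 and 87.51 in G245S and 85.18, 85.74 and 86.25 in R273H. All 3 groups overlapped, and the log2 fold changes of 0.031 and 0.015 had intervals of -0.039 to 0.102 and -0.054 to 0.085. TOMM5 shares its strand and locus with 2 protein-coding annotations, ENSG00000255872 at 13.5 to 19 CPM and ENSG00000256966 at 5.9 to 7.7 CPM, and how reads were divided among them is not given in the sources used here.

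TOMM6, a stabiliser of the complex, was at 161.8, 162.7 and 157.5 CPM in WT. It read 156.7, 144.4 and 145.3 CPM in G245S and 149.6, 152.1 and 151.2 CPM in R273H. No mutant dish reached the lowest WT dish, but G245S dish 1 came close. The log2 fold changes were -0.112 ± 0.032 and -0.09 ± 0.0313, with edgeR adjusted p of 0.0103 and 0.0311. The G245S call was lost without WT dish 2 (-0.103), G245S dish 2 (-0.09) or G245S dish 3 (-0.091). The R273H call was lost without WT dish 1 (-0.086), WT dish 2 (-0.081) or any 1 R273H dish (-0.095 to -0.083), with DESeq2 (adjusted p = 0.0718), with upper-quartile scaling (0.0809) and with no filter on low counts (0.0989). A same-strand gene, ENSG00000124593, overlaps TOMM6 and read 33.3 to 40.3 CPM.

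TOMM7, known to modulate assembly of the complex, was at 160.8, 160.6 and 163.4 CPM in WT, 159.7, 148.5 and 157.1 in G245S and 147.3, 149.2 and 155.0 in R273H. Every WT dish lay above every mutant dish, with G245S dish 1 just under the WT range. The log2 fold change was -0.103 ± 0.0311 in R273H (edgeR adjusted p = 0.0129). It was -0.059 in G245S, with an interval of -0.124 to 0.005 and no call. Leaving out R273H dish 1 (-0.088) or R273H dish 2 (-0.096) ended the R273H call.

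TOMM34, the cytosolic cochaperone, was at 104.4, 106.2 and 106.3 CPM in WT, 101.2, 99.65 and 99.56 in G245S and 103.2, 103.4 and 103.2 in R273H. The 3 groups did not overlap, and the order ran from G245S through R273H to WT. Neither difference from WT was called: the log2 fold changes were -0.077 (95% interval -0.143 to -0.012) and -0.033 (-0.097 to 0.031), with edgeR adjusted p of 0.0785 and 0.475.

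**Figure D2:**
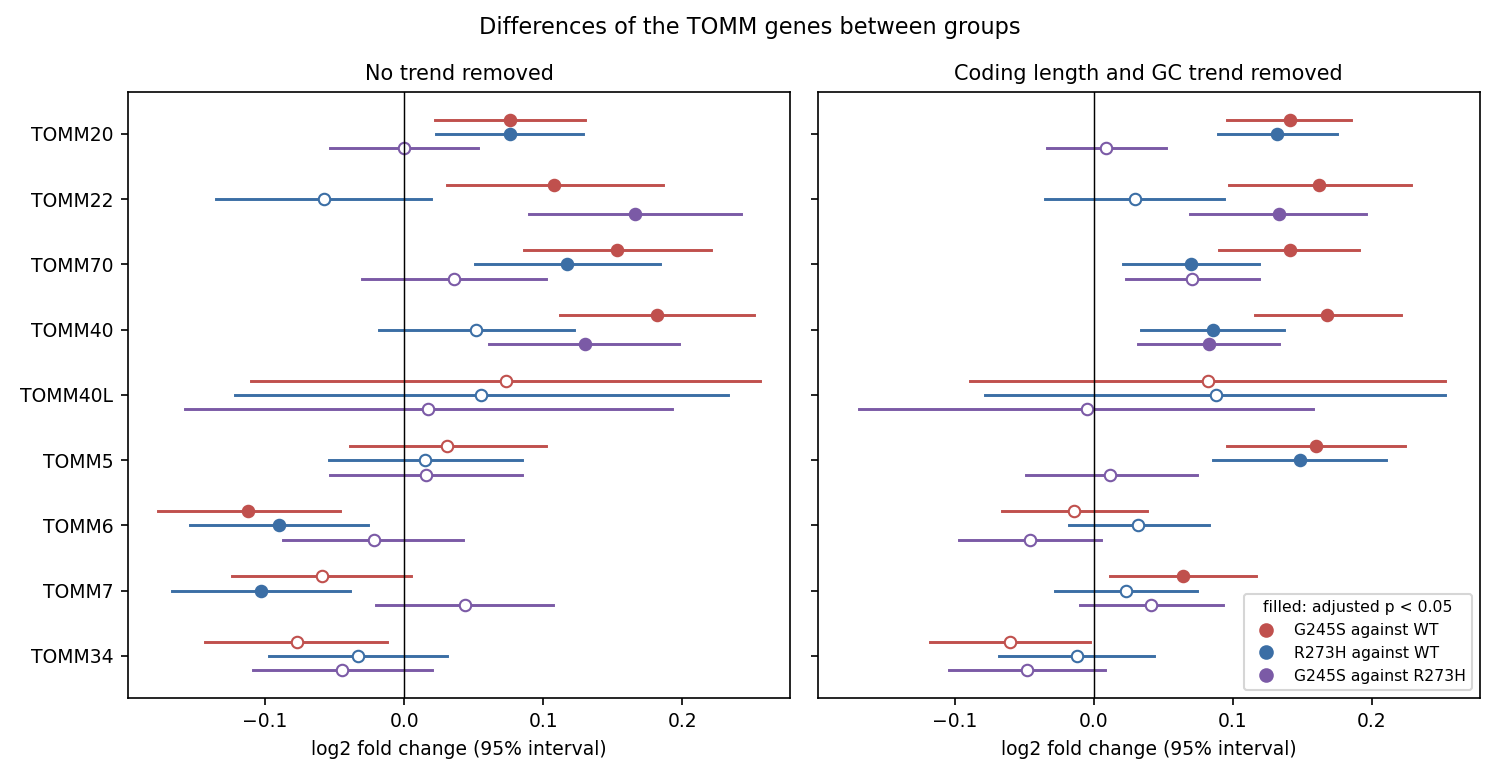
Log2 fold change of each gene in the 3 comparisons, with its 95% interval, as counted (left) and after removal of the coding length and GC trend (right); filled points have an edgeR adjusted p under 0.05. On the left TOMM6 and TOMM7 lie below 0 against WT, and on the right their points against WT lie between -0.014 and 0.064.

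The fit with the coding length and GC trend removed covered 13615 genes with a canonical coding region, and its share of all genes called was 19.4% for higher and 17.7% for lower in G245S. For R273H those shares were 18.7% and 20.1%. None of the 9 TOMM genes was called lower in either mutant in that fit. In G245S 6 of the 9 were called higher, TOMM20, TOMM22, TOMM70, TOMM40, TOMM5 and TOMM7, and in R273H 4, TOMM20, TOMM70, TOMM40 and TOMM5. The receptors and the channel kept their direction wherever they had been called. TOMM20 went to 0.141 and 0.132, with edgeR adjusted p of 8.86e-07 and 1.93e-06, and TOMM70 to 0.141 and 0.07. TOMM40 was at 0.168 in G245S and at 0.086 in R273H (edgeR adjusted p = 0.00654), where it had not been called before. With the length trend alone removed, 5 genes were called higher in G245S and 3 in R273H, and 0 lower.

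The calls of the small subunits rested on that choice. TOMM6 moved to -0.014 in G245S and 0.032 in R273H, and TOMM7 to 0.064 and 0.023. TOMM5 moved to 0.16 and 0.148, with edgeR adjusted p of 6.24e-05 and 0.00012. The trend carried between -0.132 and -0.098 of the log2 fold change of each small subunit, and 0.013 and 0.047 of that of TOMM70. The offset depends on coding length and GC content alone.

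**Figure D3:**
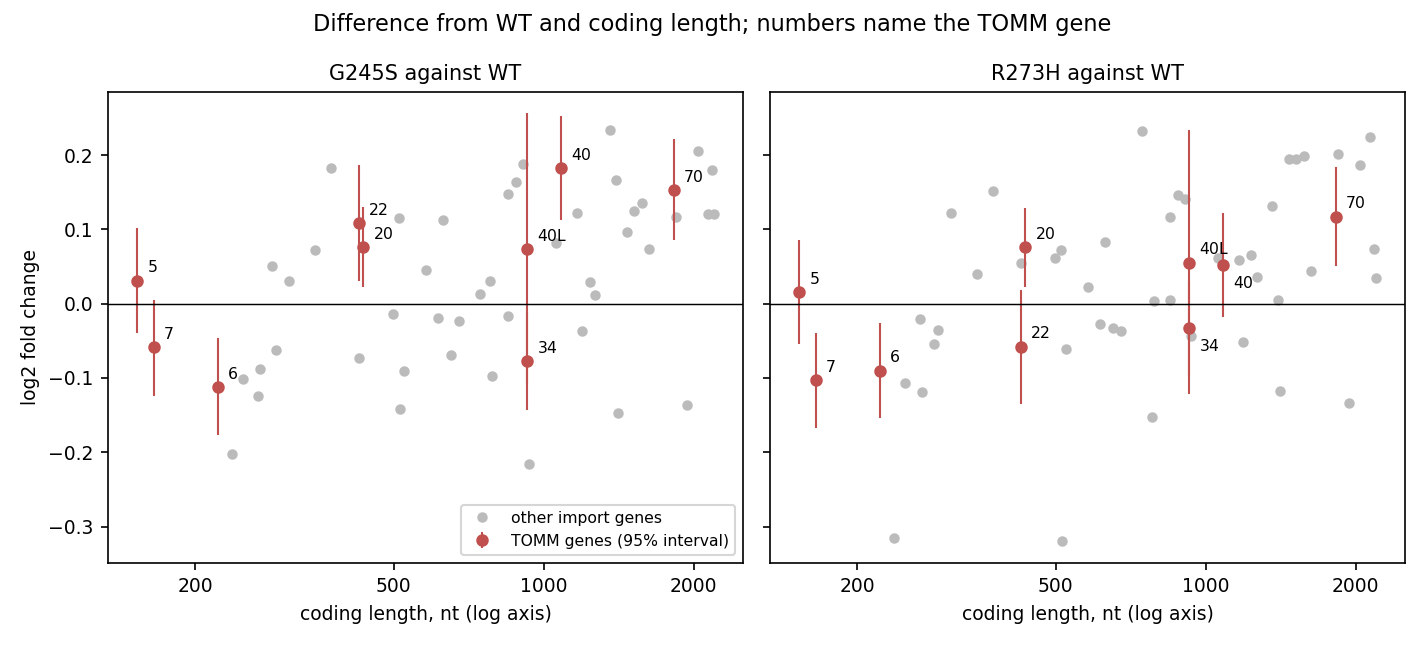
Log2 fold change against WT and coding length (nt, log axis) for the 9 genes, with 95% intervals and named by number, and for the other import genes tested (grey). TOMM6 and TOMM7, at 222 and 165 nt, lie below 0 in both panels, and TOMM70, at 1824 nt, lies above it.

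Between the mutants the direct comparison called TOMM22 and TOMM40, both higher in G245S, so 2 of 9 genes against 1.86% of all genes tested; 0 were called lower, against 0.732%. TOMM22 differed by a log2 fold change of 0.166 ± 0.037 (95% interval 0.09 to 0.242, edgeR adjusted p = 0.0115) and TOMM40 by 0.13 ± 0.0334 (0.061 to 0.198, adjusted p = 0.0313). Both held with the trend removed, at 0.133 and 0.083. Both were lost without G245S dish 1 (0.143 and 0.11), G245S dish 2 (0.16 and 0.123) or R273H dish 2 (0.147 and 0.11), and TOMM40 also without R273H dish 1 (0.138) or dish 3 (0.143). For TOMM20 the difference was 0 with an interval of -0.053 to 0.053, and for TOMM70 it was 0.036 with one of -0.03 to 0.102. Among the small subunits it was 0.016 for TOMM5 (-0.053 to 0.085), -0.022 for TOMM6 (-0.087 to 0.042) and 0.044 for TOMM7 (-0.02 to 0.107). TOMM34 stood at -0.045 (-0.109 to 0.02).

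Per kilobase of canonical coding region the small subunits were the most densely occupied. The footprint density in WT was 979.4 ± 9.52 CPM per kb for TOMM7 (SD, n = 3), 723.8 ± 12.4 for TOMM6 and 554.4 ± 9.5 for TOMM5. TOMM20 came close behind at 502.3 ± 8.28 CPM per kb, followed by TOMM22 at 203.2 ± 6.28, TOMM40 at 150.5 ± 7.24, TOMM34 at 114 ± 1.18 and TOMM70 at 99.7 ± 5.29. TOMM40L was at 12.63 ± 1.34 CPM per kb. The order was the same in R273H, where TOMM34 and TOMM70 lay at 111.4 and 108.1, and in G245S those neighbours changed places at 108 and 110.8. The densities assume that all footprints fall in the canonical frame. Counts are per gene, so where footprints lay along a frame was not tested. With the longest annotated coding region instead, TOMM7 was at 430.9 and TOMM5 at 288.5 CPM per kb in WT, both under TOMM20.

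**Figure D4:**
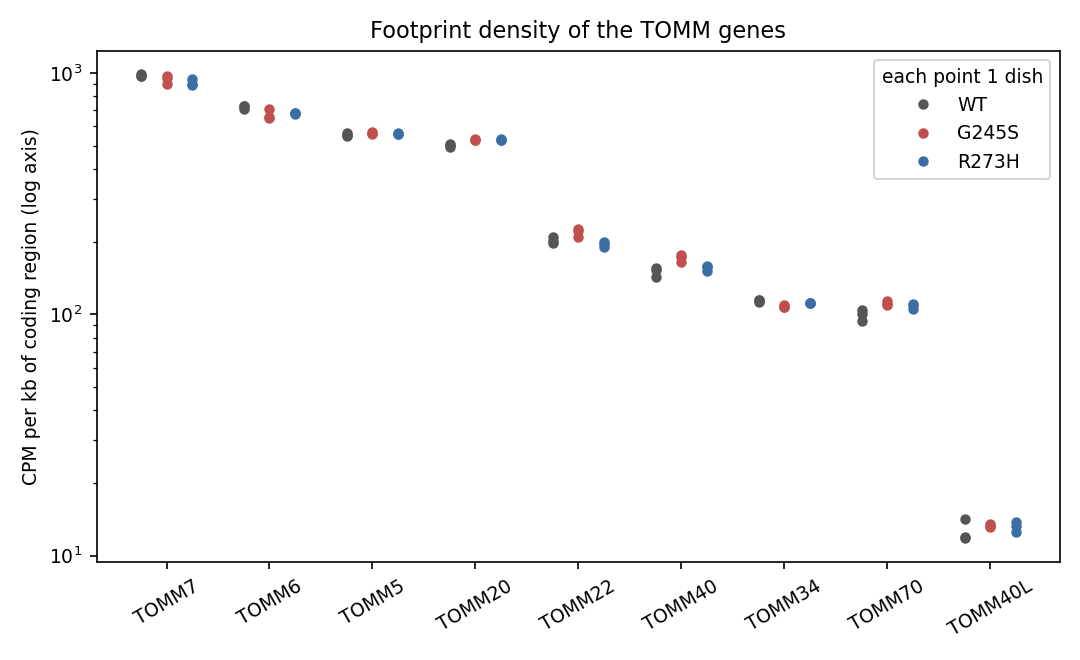
Footprint density (CPM per kb of canonical coding region, log axis) of each gene, 1 point a dish. TOMM7 and TOMM6 are highest in all groups, and TOMM40L is lowest at 12.63 CPM per kb in WT.

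Summed over all 9 genes the level was 1160, 1190 and 1172 CPM in WT, 1231, 1203 and 1208 in G245S and 1181, 1169 and 1197 in R273H. The G245S dishes lay above the WT dishes, and the R273H dishes overlapped them. The small subunits together were at 407.1 ± 2.58 CPM in WT (SD, n = 3), 390.6 ± 11.4 in G245S and 387.2 ± 5.18 in R273H. The receptors with TOMM40 were at 649.9 ± 13.9, 710.7 ± 4.65 and 679.6 ± 12.1 CPM. The small subunits thus stood to the receptors and channel as 0.627 ± 0.012 in WT, 0.55 ± 0.015 in G245S and 0.57 ± 0.011 in R273H, with every WT dish above every mutant dish. These sums are a description without a test, and the ratio contains the coding length trend given above.

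Across the 9 dishes, whose libraries and groups the points share, TOMM20 and TOMM70 ran together (Pearson r = 0.93 on log2 CPM). So did TOMM22 with TOMM40 (0.78) and TOMM6 with TOMM7 (0.7), whereas TOMM70 and TOMM6 ran opposite (-0.82). TOMM34, no subunit of the complex, ran with TOMM6 (0.8) and opposite to TOMM40 (-0.81). The small subunit TOMM5 ran with TOMM20 (0.69) and TOMM40 (0.66) and opposite to TOMM6 (-0.56). Of 12645 genes ranked by r over the same 9 dishes, those most like TOMM20 were CTH (0.986), an enzyme that makes cysteine, DDX18 (0.981), an RNA helicase of ribosome biogenesis, and NUP133 (0.981), a nuclear pore protein. Most like TOMM40 were CBS (0.957), which makes cystathionine, WDR77 (0.95), a partner of the arginine methyltransferase PRMT5, and SLC25A1 (0.949), the mitochondrial citrate carrier. Most like TOMM70 were ZNF143 (0.984), a zinc-finger transcription factor, SEC63P1 (0.982), a pseudogene whose counts are uncertain, and PSME4 (0.961), a proteasome activator.

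The rest of the import route was read from a list of 46 genes, of which 45 were tested. In G245S 16 were higher (35.6%, against 12.6% of all genes) and 6 lower (13.3%, against 12.1%), with a median log2 fold change of 0.03. In R273H 14 were higher (31.1%, against 14.2% of all genes) and 6 lower (13.3%, against 14.6%), with a median of 0.04. With the coding length and GC trend removed, the list had 20 genes up and 5 down in G245S, and 19 up and 5 down in R273H, beside the shares of all genes in that fit given above. The matrix import motor, which pulls precursors inward, had 3 of 6 tested genes higher in each mutant, and the voltage-dependent anion channels had 2 of 3, VDAC1 (0.148 in G245S and 0.116 in R273H) and VDAC2 (0.164 and 0.146). With the trend removed VDAC1 stood at 0.171 and 0.127 and VDAC2 at 0.183 and 0.135, still called. Of 6 genes for the processing of presequences, 2 were higher in G245S and 4 in R273H. The small TIM chaperones, short proteins that guide hydrophobic precursors across the intermembrane space, had 0 of 6 higher and 2 lower in each mutant. TIMM8B and TIMM9 were lower in G245S (-0.102 and -0.124), and TIMM8B and TIMM10 in R273H (-0.107 and -0.119).

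The calls of the small TIM chaperones did not hold with the coding length and GC trend removed. TIMM8B then stood at -0.01 and 0.008, TIMM9 at -0.026 in G245S and TIMM10 at -0.007 in R273H. Other members of this group were called higher in that fit. TIMM13 stood at 0.119 in G245S and 0.068 in R273H (edgeR adjusted p of 0.000693 and 0.0492). TIMM10B stood at 0.237 in R273H (edgeR adjusted p = 0.0195). Both TIMM8B calls, the TIMM9 call in G245S and the TIMM10 call in R273H were also lost with DESeq2 (adjusted p of 0.0933, 0.0764, 0.107 and 0.0596). In R273H TIMM8B was also lost without WT dish 1 (-0.106), WT dish 2 (-0.104) or R273H dish 2 (-0.095), and TIMM10 without WT dish 1 (-0.091), WT dish 2 (-0.118) or R273H dish 1 (-0.101). In G245S TIMM9 was lost without WT dish 2 (-0.138) or dish 3 (-0.09) and G245S dish 1 (-0.114) or dish 2 (-0.115), and TIMM8B in 7 of 9 fits without 1 dish (-0.114 to -0.061).

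Among the genes of the list called in G245S, the highest were TIMM44 (log2 0.233 ± 0.0348), which anchors the motor at the channel, HSPA9 (0.205 ± 0.023), the mitochondrial Hsp70, and MTCH2 (0.188 ± 0.0321), an outer-membrane insertase. HSPA9 went from 899.8, 914.0 and 948.8 CPM in WT to 1046, 1062 and 1076 CPM in G245S. The lowest of those called were ROMO1 (-0.203 ± 0.0295), a small partner of the TIM23 channel, SAMM50 (-0.147 ± 0.0339), the β-barrel that inserts TOMM40 into the membrane, and TIMM17B (-0.142 ± 0.0387), a TIM23 channel subunit. SAMM50 read 190.1, 203.7 and 192.7 CPM in WT and 171.7, 172.2 and 185.3 CPM in G245S. MTX3, a SAM complex subunit that was not called, stood lower still at -0.216 (edgeR adjusted p = 0.0502), and at -0.201 with the trend removed, where it was called. The TIMM17B call was lost without WT dish 1 (-0.11). With the trend removed TIMM44 stood at 0.22, HSPA9 at 0.191, MTCH2 at 0.206, SAMM50 at -0.151 and TIMM17B at -0.11, all still called. With the length trend alone removed TIMM17B was not called (-0.097, edgeR adjusted p = 0.0502). In R273H, TIMM44 (0.131), HSPA9 (0.187) and MTCH2 (0.141) were called higher too. SAMM50 was also called lower in R273H (-0.117, edgeR adjusted p = 0.00871), and at -0.142 with the trend removed. That SAMM50 call was lost without WT dish 2 (-0.087) or R273H dish 1 (-0.097).

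Among those called in R273H, the highest were TIMM21 (0.232 ± 0.073), a TIM23 partner, MIPEP (0.224 ± 0.0537), a peptidase of presequence processing, and AIFM1 (0.201 ± 0.0256), which docks the oxidative folding enzyme. The TIMM21 call was lost without WT dish 2 (0.145) or R273H dish 2 (0.209), and with DESeq2 (0.236, adjusted p = 0.0592). TIMM17B (-0.32 ± 0.0383), ROMO1 (-0.316 ± 0.0292) and HSPA8 (-0.134 ± 0.0213), the cytosolic Hsp70, were the lowest of those called. TIMM29, of the TIM22 complex, was at -0.153 and not called (edgeR adjusted p = 0.0536). With the trend removed TIMM21 stood at 0.233, MIPEP at 0.18, AIFM1 at 0.174, TIMM17B at -0.236 and HSPA8 at -0.179, all still called. In G245S, AIFM1 (0.116) and HSPA8 (-0.137) were called too, whereas TIMM21 (0.013) and MIPEP (0.12) were not. ROMO1 fell from 161.7, 162.7 and 162.1 CPM in WT to 127.5, 132.8 and 130.5 in R273H, with no overlap. With the trend removed ROMO1 stood at -0.124 in G245S and -0.184 in R273H and was called in both, so the same step that ended the lower calls of TOMM6 and TOMM7 left that of this short gene.

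**Figure D5:**
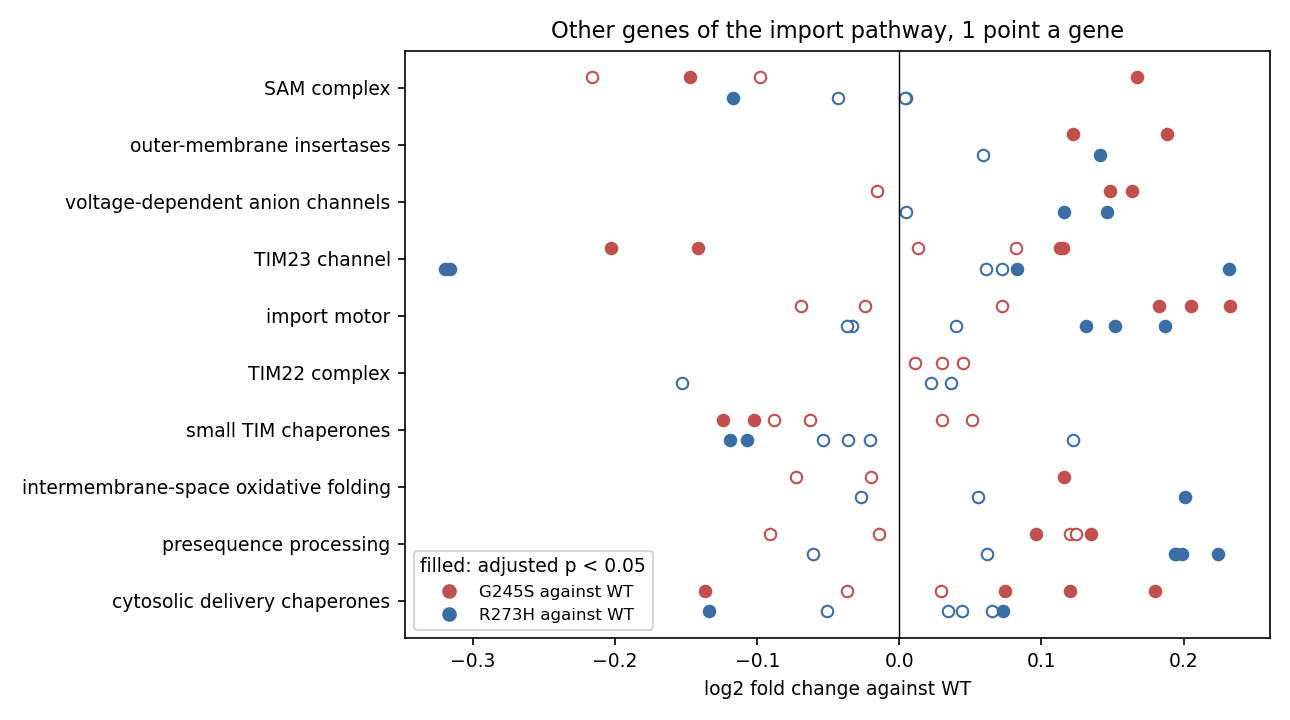
Log2 fold change against WT of 45 other genes of the import route by step, 1 point a gene; filled points have an edgeR adjusted p under 0.05. TIMM17B and ROMO1, of the TIM23 channel, are lowest in R273H at -0.32 and -0.316, and the import motor has 3 genes called higher in each mutant.

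Between the mutants 4 of the 45 genes were called higher in G245S (8.89%, against 1.86% of all genes) and 0 lower (against 0.732%). The replicate block gave 8 higher and 2 lower, and the fit with the trend removed 4 higher and 2 lower. MTX1, a SAM complex subunit, was at 100.1 ± 3.04 CPM in G245S and 89.36 ± 2.88 in R273H (SD, n = 3), and TIMM17B at 80.53 ± 1.08 and 71.15 ± 2.4 CPM. ROMO1 was at 140.9 ± 2.65 and 130.3 ± 2.64 CPM, and HSP90AB1, the cytosolic Hsp90 that delivers precursors to TOMM70, at 2630 ± 37.7 and 2442 ± 53.4 CPM. The log2 differences were 0.162, 0.178, 0.112 and 0.107, and with the trend removed MTX1 stood at 0.113, TIMM17B at 0.127 and HSP90AB1 at 0.135, still called, while ROMO1, at 0.06, was not. In that fit HSP90AA1 (0.14) was also called higher, and AIFM1 (-0.07) and PMPCA (-0.078), a gene of presequence processing, lower. The ROMO1 call was also lost with no filter on low counts (0.105). Leaving out G245S dish 1 ended all 4 calls (0.145 for MTX1, 0.172 for TIMM17B, 0.108 for ROMO1 and 0.097 for HSP90AB1). MTX1 was also lost without G245S dish 2 (0.158) or R273H dish 3 (0.137), TIMM17B without G245S dish 2 (0.174), R273H dish 2 (0.173) or dish 3 (0.158), and HSP90AB1 without R273H dish 1 (0.101) or dish 2 (0.096). ROMO1 was lost without WT dish 2 (0.113), G245S dish 2 (0.103) or any 1 R273H dish (0.097 to 0.127).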

How the data were processed

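HEK293T cells with a WT, G245S or R273H p53 construct were profiled as 1 sample per group, each with 3 dish columns. The authors trimmed reads (Trim Galore, Cutadapt), read UMIs where present (UMI-tools), removed rRNA (SortMeRNA) and aligned to GRCh38 with STAR; the counting tool, annotation and use of strand are not given in the sources used here, so overlapping genes are uncertain. The deposited table holds the authors' expected counts per gene, without scaling; 61.5% to 63.7% of the nonzero values per library were not whole, and counts were rounded. Identifiers matched GENCODE v44 for 99.09% of genes.

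Counts were fitted in edgeR 4.0.16 (R 4.3.3): TMM, filterByExpr, robust glmQLFit with group as the only term over all 9 dishes, glmQLFTest two-sided, Benjamini-Hochberg adjustment over 19820 genes, calls at 0.05, and 95% intervals from the fit. The biological coefficient of variation was 2.58%. Trends in coding length and GC content were fitted per library with mgcv 1.9.3 and removed as an offset. Correlations used log2(CPM + 0.5) and genes that averaged at least 100 counts. DESeq2 1.42.0, other scalings and filters, added pseudogene counts, a replicate block and leaving out each dish were alternatives. The fit was tested on simulated data.

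The members and the list of import genes were chosen with earlier results of these data known. All 9 members are named. From the import list, the 3 largest called differences in each direction per mutant and all called between the mutants are named. Chosen after their values were seen, VDAC1, VDAC2, TIMM8B, TIMM9, TIMM10, TIMM10B, TIMM13, MTX3, TIMM29, HSP90AA1 and PMPCA are also named.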

Additional observations from a re-analysis of the deposited data

Results flagged for a closer look

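The genes here were singled out because their levels differed between the mutants in a direct edgeR test (Benjamini-Hochberg adjusted over 19820 genes, n = 3 dishes each). TOMM22 was higher in G245S than in R273H by a log2 fold change of 0.166 (adjusted p = 0.0115) and TOMM40 by 0.13 (adjusted p = 0.0313). With the coding length and GC trend removed they stood at 0.133 and 0.083 and were still called. Of the other import genes, MTX1 was higher in G245S by 0.162 (adjusted p = 0.0107), TIMM17B by 0.178 (adjusted p = 0.00973), ROMO1 by 0.112 (adjusted p = 0.0349) and HSP90AB1 by 0.107 (adjusted p = 0.00549). Every G245S dish lay above every R273H dish for each of the 6 genes. They were picked by this same comparison of the same dishes, so this adds no support. The share of all genes with such a separation was not counted. Of all genes tested, 1.86% were called higher in this comparison. Each of the 6 calls was lost without G245S dish 1, at 0.143 for TOMM22, 0.11 for TOMM40, 0.145 for MTX1, 0.172 for TIMM17B, 0.108 for ROMO1 and 0.097 for HSP90AB1. Whether the lines or their library pools differ cannot be told apart.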

How the results depend on the processing

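Against a fold change of 1.2 the count of TOMM genes called was 0 in all 3 comparisons, as was that of import genes. With 1 dish left out, the TOMM count ranged from 2 to 5 in G245S against WT, 1 to 4 in R273H against WT and 0 to 2 between the mutants, and the import count from 17 to 22, 12 to 23 and 0 to 7. With the coding length and GC trend removed TOMM22 in R273H turned to 0.03 (0.013 with the length trend alone, an alternative chosen after seeing the data), TOMM6 in R273H to 0.032 (0.02), TOMM7 in G245S to 0.064 (0.06) and in R273H to 0.023 (0.019), TIMM9 in R273H to 0.032 (0.08), TIMM8B in R273H to 0.008 and TOMM40L between the mutants to -0.005. TOMM20 between the mutants, near 0 throughout, was -0.003 with RLE or upper-quartile scaling, DESeq2 or a mean count of at least 100, -0.007 without a filter, -0.001 with 6 dishes, -0.014 with the length trend removed and -0.004 to 0.008 without 1 dish. Without 1 dish, TOMM40L between the mutants ranged from -0.018 to 0.051, TIMM21 in G245S from -0.073 to 0.076 and TIMM9 in R273H from -0.037 to 0.012. Added pseudogene counts raised the summed level to 1210 CPM in WT, 1253 in G245S and 1220 in R273H. The longest coding region put TOMM5 at 288.5, 294.7 and 291.6 CPM per kb and TOMM7 at 430.9, 413.6 and 401.3. Causes of these shifts other than the settings themselves were not tested.

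Same-numbered dishes of different groups correlated at 0.044 to 0.234 in their deviations, over 0.1 in 4 of 9 pairs, and 9 of 9 dishes correlated best with their own number, a hint from the data and not from the design. The replicate block gave 6, 4 and 2 TOMM genes in the 3 comparisons (TOMM34 added in G245S, adjusted p = 0.0383), 0 for the difference of TOMM20 between the mutants and 10 import genes between the mutants (4 without it). With the block and the trend removed the TOMM counts were 6, 4 and 3. Calls near 0.1 on the log2 scale lie close to what 3 dishes per group resolve.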
